A study of Mus musculus with 24 samples.

Results

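The livers compared here were those of Rab30L-/- mice and of double floxed control mice (ff;ff), collected after a 24 h fast, with 4 livers in each group out of 24 livers in the study. The comparison was made over all genes expressed in these livers: 13367 of the 54532 genes in the count table had enough reads to be tested. In Rab30L-/- mice, Cre recombinase made under the albumin promoter, and so in hepatocytes, removes exon 4 of both floxed Rab30 alleles in the liver. The ff;ff mice carry floxed alleles of Rab30 and of Cpt2, the mitochondrial carnitine palmitoyltransferase needed for long chain fatty acid oxidation, and have no Cre. All were adult males, and RNA was taken from whole frozen liver, so that cells other than hepatocytes are part of every library. The labels give the ff;ff mice as littermates of the double knockouts (DKO) and name no littermates of the Rab30L-/- mice, so the effects of Cre, of the floxed Cpt2 alleles and of litter or colony cannot be told apart from the loss of Rab30. Each library is 1 mouse, and the p-values measure the spread between these 8 livers.

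Rab30 is a small GTPase of the Rab family. Rab proteins switch between a GTP-bound and a GDP-bound form and recruit effector proteins to the membrane on which they sit, which for Rab30 is chiefly the Golgi apparatus. The hepatocyte Golgi carries a heavy load of plasma proteins and lipoproteins, and fasting turns the liver to fatty acid oxidation and glucose production. The comparison asks how the fasted liver transcriptome differs when hepatocytes lack Rab30 and Cpt2 is intact.

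The libraries held 13248673 to 24497738 counts in Rab30L-/- and 13230854 to 17508850 in ff;ff. All 8 showed high levels of hepatocyte markers, with sums of 10 markers from 90340 to 105000 CPM (read counts over TMM-scaled library size) in Rab30L-/- and from 107000 to 139100 CPM in ff;ff. The groups did not overlap in this sum, in which Alb (albumin) is the main term. Albumin took 4.81% to 6.30% of all counts in Rab30L-/- and 6.99% to 8.16% in ff;ff, although its log2 fold change of -0.49 did not pass the test (edgeR adjusted p = 0.362). Mitochondrially encoded RNA took 4.31% to 4.86% of counts in Rab30L-/- and 4.66% to 7.86% in ff;ff, with ff;ff replicate 1 the highest. Rab30L-/- replicate 2 stood apart in its macrophage markers, given below. Replicates correlated at r = 0.967 to 0.983 within Rab30L-/-, 0.956 to 0.984 within ff;ff and 0.955 to 0.979 between the groups (log2 CPM across genes, which are not independent replicates).

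Exon 4 is the part of Rab30 that Cre removes, and it lies at chr7:92829526-92829709 on the plus strand of GRCm38. It is 184 bases long, is wholly coding, and makes up 30.2% of the 609 coding bases, so that its removal leaves a coding sequence out of frame (184 is 1 base over a multiple of 3). Its sequence is shown because it is the edited segment, with the 18 bases that encode the nucleotide-binding switch motif shared by Rab GTPases in capitals.
Rab30 exon 4: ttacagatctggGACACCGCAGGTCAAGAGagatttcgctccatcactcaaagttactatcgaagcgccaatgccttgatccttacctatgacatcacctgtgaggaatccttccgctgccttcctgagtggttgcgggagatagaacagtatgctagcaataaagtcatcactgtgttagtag
The exon is only 1.91% of the 9642 bases over which the table counts the gene, most of which is the last exon (8847 bases). The count over the whole gene therefore checks the labels only indirectly. Rab30 (ENSMUSG00000030643) was at 19.2, 10.4, 26.6 and 12.3 CPM in Rab30L-/- replicates 1 to 4 and at 25.9, 44.6, 44.6 and 31.2 CPM in ff;ff replicates 1 to 4. The groups overlapped, because Rab30L-/- replicate 3 lay above ff;ff replicate 1. The means were 17.1 ± 7.36 and 36.6 ± 9.55 CPM (SD, n = 4), a log2 fold change of -1.10 (standard error, SE, 0.29) that missed the threshold in the edgeR quasi-likelihood test after Benjamini-Hochberg adjustment (adjusted p = 0.174) and passed it in DESeq2 (adjusted p = 0.0155) and limma-voom (adjusted p = 0.025). Cpt2, floxed in ff;ff but not recombined there, was at 268, 214, 226 and 170 CPM in Rab30L-/- and at 128, 139, 133 and 128 CPM in ff;ff. Every Rab30L-/- liver was higher, with a log2 fold change of 0.73 that did not pass the test (edgeR adjusted p = 0.0772, and 0.00147 in DESeq2).

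A gene was called changed where the edgeR adjusted p was below 0.05 and the groups differed by 1.2-fold or more, which held for 64 genes, 0.479% of those tested. Of these, 40 were higher in Rab30L-/- (0.299% of genes tested) and 24 were lower (0.18%). The 64 genes comprised 47 protein-coding genes (28 higher and 19 lower), 12 pseudogenes (8 higher and 4 lower), 4 other noncoding genes (3 higher and 1 lower) and Gbp11, which is annotated as a polymorphic pseudogene. Pseudogenes were 18.8% of the called genes and 3.89% of the genes tested. Changes were large, since 37 of the 40 higher and 21 of the 24 lower genes changed at least 2-fold by the fit, and levels were often low, with a mean under 10 CPM in both groups for 30 of the 64. Among all genes tested, the 4 livers of a group lay wholly on one side of the other 4 in 853 (6.38%, with Rab30L-/- above in 3.49% and below in 2.89%), and all 64 called genes were of this kind. The median log2 fold change over all genes tested was 0.0022.

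**Figure D1:**
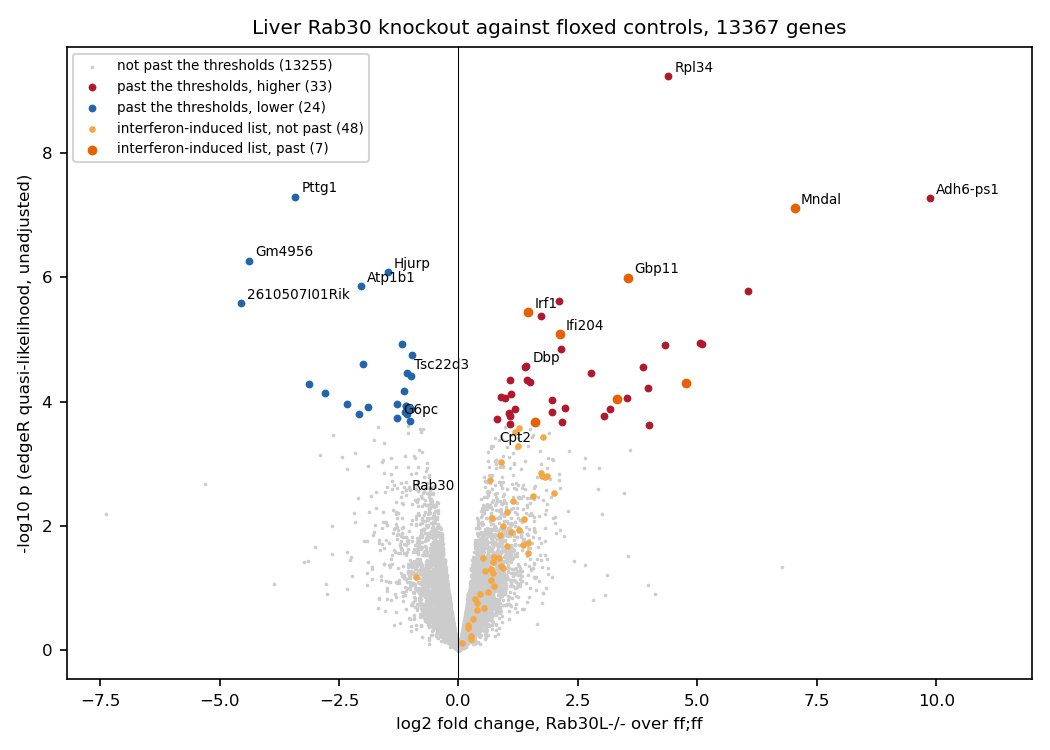
Log2 fold change of Rab30L-/- over ff;ff (horizontal axis) against the -log10 of the unadjusted edgeR p (vertical axis) for the 13367 genes tested, each dot a gene. Red and blue dots mark genes past the thresholds, and orange dots mark 55 interferon-induced genes, 7 of them past the thresholds and 54 of them to the right of 0; fitted values of genes with almost no counts in ff;ff, such as Adh6-ps1 and Mndal, are not bounds.

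How many genes were called depended on the tool and the filter. DESeq2's Wald test called 298 genes and limma-voom 236, which included 64 and 59 of the 64. With each library left out in turn, edgeR called between 23 genes (without Rab30L-/- replicate 4) and 93 (without Rab30L-/- replicate 1), and between 22 and 48 of the 64 were among them. The calls of 18 genes held in every one of these fits that they entered: Adh6-ps1, Mndal, Gm12411, Rpl21-ps8, Dab1, Rpl34, Gm8741, Gbp11, Ifi204, Col15a1, Dusp12, Irf1, mt-Atp6, Hjurp, Atp1b1, Pttg1, Gm4956 and 2610507I01Rik. For 36 genes the call was lost with 4 or more of the 8 libraries. In an edgeR fit over all 24 libraries of the study, 24 of the 64 were not called: G6pc, mt-Atp6, Dbp, Atox1, Car14, Daglb, Ikbke, Trim14, Celsr1, Rpl21, Tgtp2, Gbp3, Btnl9, Obp2a, Mkx, Asb2, Ephb6, Rpl34-ps1, Gm29216, Gm13340, Gm2788, Gm4963, Gm15502 and Gm8741. The 5 genes that limma-voom did not call were Rarres1, Rpl21, Mme, Tgtp2 and Obp2a.

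Interferon-induced genes were the group with the most genes higher in Rab30L-/-. Interferons act through receptors and Stat proteins to switch on a common set of genes, among them guanylate-binding proteins (Gbp) and other GTPases that attack intracellular microbes, the Ifi200 family of DNA-binding proteins encoded together on chromosome 1, and factors such as Irf1 that carry the response on. Of 55 such genes tested, 7 rose (Mndal, Gbp11, Irf1, Ifi204, Ifi213, Tgtp2 and Gbp3) and none fell, where 0.299% of all genes tested rose. Without adjustment of p, 38 of the 55 passed as higher and 0 as lower, against 6.37% and 4.81% of all genes tested. The log2 fold change was above 0 in 54 of the 55, as in 50.4% of all genes tested, with a median of 0.93, the same with Mndal and Ifi213 set to the bounds given below, against 0.0022 for all genes. In 19 of the 55 (34.5%) every Rab30L-/- liver was above every ff;ff liver, as in 3.49% of all genes tested. The list was drawn up with earlier results of these data known, so its direction is not independent evidence.

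Irf1, a transcription factor of the interferon response, was at 28.7, 47.3, 37.4 and 31.3 CPM in Rab30L-/- replicates 1 to 4 and at 15.7, 11.9, 11 and 13.6 CPM in ff;ff. The lowest Rab30L-/- liver was well above the highest ff;ff liver. Its log2 fold change was 1.46 (SE 0.18, edgeR adjusted p = 0.00405), and it stayed between 1.31 and 1.56 with each library left out. Gbp11, a guanylate-binding protein gene, was at 17.7, 14.4, 28.8 and 38.6 CPM in Rab30L-/- against 2.88, 1.24, 2.65 and 1.78 CPM in ff;ff, a log2 fold change of 3.55 (SE 0.37, edgeR adjusted p = 0.00193). Gbp3, of the same family, was at 4.30, 9.40, 11.3 and 5.54 CPM against 2.80, 2.31, 2.23 and 2.73 CPM. The ff;ff livers were close together and the Rab30L-/- livers spread over more than a 2-fold range, with a log2 fold change of 1.596 (edgeR adjusted p = 0.0461). Tgtp2, an interferon-induced GTPase of another family, was at 2.19, 11.1, 14 and 6.45 CPM against 0.612, 0.473, 0.837 and 1.4 CPM, a log2 fold change of 3.32 (edgeR adjusted p = 0.0302). Tgtp2 is 99.8% identical to Tgtp1, so reads may be split between them. The sum of Tgtp2 and its near-identical copies was 19 ± 10.4 CPM in Rab30L-/- and 3.46 ± 1.27 CPM in ff;ff (SD, n = 4), a ratio of 5.5. The call of Gbp3 was lost with any library but Rab30L-/- replicate 1 left out (adjusted p up to 0.146), and that of Tgtp2 with any but Rab30L-/- replicate 1 and ff;ff replicate 4 (adjusted p up to 0.111).

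The Ifi200 genes Ifi213, Ifi204 and Mndal lie in this order on the minus strand of chromosome 1, with gaps of 148 kb and 82.2 kb between neighbours. Mndal was at 4.68, 7.75, 5.28 and 4.71 CPM in Rab30L-/- and had 0 counts in ff;ff replicates 1, 2 and 4 and 0.139 CPM in replicate 3. It was therefore at least 27.3-fold higher in Rab30L-/-, taking the floor of 3 counts per library (0.205 CPM on average in ff;ff) for ff;ff. Ifi213 was at 0.755, 1.81, 0.922 and 1.14 CPM in Rab30L-/- and was detected in ff;ff replicate 4 alone among the controls, so that it was at least 5.64-fold higher. Ifi204 was at 4.91, 8, 5.53 and 4.48 CPM against 1.22, 1.30, 1.05 and 1.65 CPM, a log2 fold change of 2.11 (SE 0.29, edgeR adjusted p = 0.00781). The edgeR adjusted p of Mndal was 0.000259 and that of Ifi213 was 0.0214. The call of Ifi213 was lost with Rab30L-/- replicates 2 or 4 or ff;ff replicates 1, 2 or 3 left out (adjusted p up to 0.0747). These genes share stretches of near-identical sequence (Mndal with Ifi204 at 97.7%, Ifi213 with Ifi208 at 98.2%), and Mndal overlaps Ifi203 in the annotation, so the split of reads among them is uncertain. Summed with its near-identical copies that do not overlap it, Mndal was at 11.6 ± 3.14 CPM in Rab30L-/- and 1.46 ± 0.156 CPM in ff;ff (SD, n = 4).

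Of the interferon-induced genes that missed the threshold, 4 chosen after their values were seen had every Rab30L-/- liver above every ff;ff liver. Psmb9 and Psmb8, subunits of the immunoproteasome that trims peptides for display to T cells, had means of 16.8 and 24.2 CPM in Rab30L-/- and 6.98 and 10.7 CPM in ff;ff (edgeR adjusted p = 0.0523 and 0.0557). Ifi47, an interferon-induced GTPase, had means of 34.4 and 10.04 CPM (adjusted p = 0.0617), and Ifi203 means of 6.95 and 2.91 CPM (adjusted p = 0.0772). The summed level of the 55 genes was 941, 1373, 1273 and 1176 CPM in Rab30L-/- and 928, 662, 422 and 875 CPM in ff;ff. Every Rab30L-/- liver was above every ff;ff liver in this sum, with Rab30L-/- replicate 1 only just above ff;ff replicate 1. The median log2 fold change of the list lay between 0.78 and 1.14 under all alternatives, and its called members between 3 (at least 10 counts in every library) and 20 (DESeq2).

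Promoters of these genes were searched for the letters that interferon-activated factors are known to bind. One motif was the core of the interferon-stimulated response element, GAAA, any 2 bases and GAAA again on either strand (read from the other strand, TTTC, any 2 bases and TTTC), and the other the gamma-activated site TTCNNNGAA, which is its own complement. In the 250 bases before the start site in RefSeq (GRCm38.p6), the first was found in 23 of the 39 interferon-induced genes with a promoter in the table (59%) and in 3.31% of the 9833 genes tested that had one. The second was found in 12 of the 39 (30.8%) and in 7.33% of genes tested. In all 32851 promoters of the table the shares were 2.98% and 7.02%. Of the 7 called members, Gbp11 and Ifi204 had no promoter in the table, and the other 5 each held a match. The windows around the matches are shown with the matched letters in capitals, from the sense strand of each gene, since they are the stretches that these called genes share with the list.
Gbp3: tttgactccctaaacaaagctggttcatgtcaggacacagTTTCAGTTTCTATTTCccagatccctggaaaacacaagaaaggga
Tgtp2: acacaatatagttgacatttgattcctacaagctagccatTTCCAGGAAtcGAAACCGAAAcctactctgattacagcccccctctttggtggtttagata
Ifi213: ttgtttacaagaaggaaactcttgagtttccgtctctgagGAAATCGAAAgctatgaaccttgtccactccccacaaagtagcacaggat
Mndal: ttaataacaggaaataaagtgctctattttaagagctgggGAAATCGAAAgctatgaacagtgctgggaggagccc
Irf1: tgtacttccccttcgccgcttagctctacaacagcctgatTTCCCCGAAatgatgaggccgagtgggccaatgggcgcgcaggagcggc
The window of Gbp3 is chr3:142559959-142560043 on the plus strand, with 2 overlapping response element matches that begin 45 bases before the start site. That of Tgtp2 is chr11:49064233-49064333 on the minus strand, with a gamma-activated site 81 bases and a response element 70 bases before the start site. Ifi213 (chr1:173599296-173599385, minus strand) and Mndal (chr1:173880188-173880263, minus strand, the farther upstream of 2 promoters in the table) held the same 10 letters 73 and 36 bases before their start sites. Irf1 (chr11:53769884-53769972, plus strand) held a gamma-activated site 90 bases before its start. A match of letters is a description and was not tested for binding.

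Other genes of innate immunity were among those called. Trim14, an adaptor of antiviral signalling, was at 28.1, 24.7, 19.6 and 25.3 CPM in Rab30L-/- and at 10.1, 10.1, 14.1 and 11.7 CPM in ff;ff (log2 fold change 1.07, edgeR adjusted p = 0.021). It overlaps Nans on chromosome 4, and reads of overlapping genes may be counted for either. Ikbke, a kinase that acts upstream of interferon production, was at 29.1, 25.6, 23.5 and 28.2 CPM against 16.2, 13.6, 17.6 and 13.1 CPM (log2 fold change 0.81, adjusted p = 0.0429). The groups did not overlap in either gene. The call of Trim14 was lost with Rab30L-/- replicates 2 or 4 or ff;ff replicates 2 or 4 left out (adjusted p up to 0.0748), and that of Ikbke with any library but ff;ff replicate 3 (up to 0.157). Zc3h12d, an RNase-like regulator of immune cell messages, was at 2.72, 5.44, 3.48 and 5.54 CPM against 1.14, 0.650, 0.488 and 0.254 CPM (log2 fold change 2.78, adjusted p = 0.0177, lost without Rab30L-/- replicates 2 or 4 or ff;ff replicate 2, up to 0.0669). Of 22 MHC class I and II genes, which also respond to interferon, 0 were called by edgeR, 1 by DESeq2 and 0 by limma-voom, 6 passed as higher without adjustment, as did 6.37% of all genes tested, and the median log2 fold change was 0.41. Their summed level overlapped between the groups, at 5436, 7130, 6496 and 4324 CPM in Rab30L-/- and 5724, 5121, 5298 and 6054 CPM in ff;ff. Ciita, the activator of MHC class II transcription, had means of 1.79 and 0.468 CPM and did not pass (adjusted p = 0.142).

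Markers of immune cells were read in the same libraries. All 12 Kupffer cell and macrophage markers had log2 fold changes above 0 (median 0.69), as did 50.4% of all genes tested. Of the 12, 0 were called by edgeR, DESeq2 or limma-voom, 4 passed as higher without adjustment, where 6.37% of all genes did, and in none did the groups separate. Their summed level was 305, 866, 545 and 344 CPM in Rab30L-/- and 300, 243, 309 and 448 CPM in ff;ff, so that Rab30L-/- replicate 2 was the highest and the groups overlapped. Without that library the median was 0.36. All 6 B and T cell markers with enough counts, of 14 in the list, were also above 0 (median 1.2), with sums of 9.66 to 25.9 CPM against 6.97 to 13.8 CPM. None was called by edgeR, 3 passed as higher without adjustment, against the same 6.37%, and DESeq2 and limma-voom called 1 each. Csf3r, the receptor of granulocyte colony-stimulating factor and the only one of 10 neutrophil markers with enough counts, was at 2.27, 8.49, 2.39 and 1.67 CPM in Rab30L-/- and at 0.873, 1.72, 1.25 and 1.90 CPM in ff;ff. The groups overlapped, Rab30L-/- replicate 2 was the highest, and the log2 fold change of 1.32 passed without adjustment and not with it (edgeR adjusted p = 0.352). In whole liver RNA, more cells of a type and more RNA per cell cannot be told apart, and the part of immune cells in the levels of the called interferon-induced genes was not tested. The median of the interferon-induced list without Rab30L-/- replicate 2 was 0.78, with 54 of 55 genes above 0 and 4 called.

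**Figure D2:**
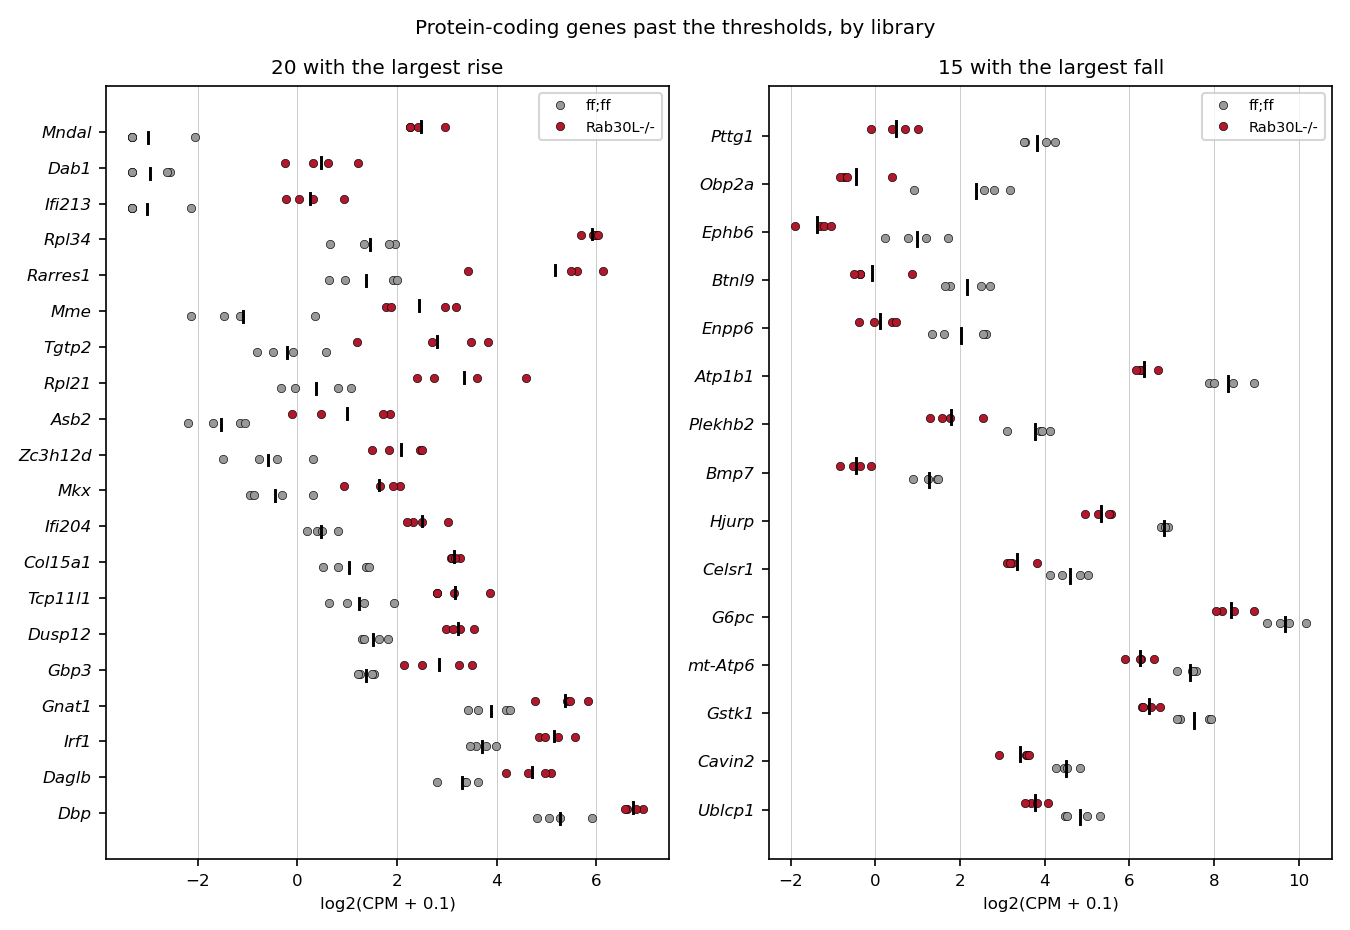
Level of called protein-coding genes in each liver, as log2(CPM + 0.1) on the horizontal axis, for the 20 with the largest rise (left) and the 15 with the largest fall (right). Grey points are the 4 ff;ff livers, red points the 4 Rab30L-/- livers and black ticks the mean of each group's log2 values; in every row the groups do not overlap.

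Rarres1, Mme and Col15a1, which encode secreted or cell surface proteins, were also called higher. Rarres1, a retinoic acid-induced carboxypeptidase inhibitor, was at 69.9, 48.6, 10.6 and 44.9 CPM in Rab30L-/- against 3.67, 3.90, 1.46 and 1.84 CPM in ff;ff. Rab30L-/- replicate 3 was much lower than the other Rab30L-/- livers but above all ff;ff livers. The log2 fold change was 3.996 (SE 0.63, edgeR adjusted p = 0.0494), and the call was lost with any library but Rab30L-/- replicate 3 left out (adjusted p up to 0.152). Mme, which encodes the peptidase neprilysin, was at 8.98, 7.67, 3.35 and 3.57 CPM against 0.262, 1.18, 0.348 and 0.127 CPM (log2 fold change 3.52, adjusted p = 0.0302), a call that was lost without Rab30L-/- replicates 2 or 4 or ff;ff replicates 1, 3 or 4 (up to 0.0901). Col15a1, a collagen of vascular and stellate cell basement membranes, was at 8.38, 9.49, 8.51 and 8.81 CPM against 1.66, 2.48, 1.32 and 2.60 CPM. Its Rab30L-/- livers were closely alike, and its log2 fold change was 2.10 (SE 0.25, adjusted p = 0.00311). The wider list of 12 stellate cell and fibroblast markers, which does not hold Col15a1, had 0 called genes by any of the 3 tools, 2 passing as higher and 1 as lower without adjustment (6.37% and 4.81% of all genes tested), and a median of 0.22.

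The other protein-coding genes called higher have varied roles. Dab1, an adaptor of the reelin pathway, was at 1.43, 0.742, 2.22 and 1.14 CPM in Rab30L-/- and at or under 0.0697 CPM in every ff;ff liver, at least 6.75-fold higher (edgeR adjusted p = 0.00921). Daglb, a lipase that makes the endocannabinoid 2-arachidonoylglycerol from diacylglycerol, was at 33.9, 31.3, 18.2 and 24.5 CPM against 6.90, 10.2, 10.3 and 12.3 CPM (log2 fold change 1.43, adjusted p = 0.021). Gnat1, a transducin subunit best known from rod photoreceptors, was at 27.2, 42.6, 56.9 and 44.1 CPM against 18.2, 10.6, 12.2 and 19.3 CPM (log2 fold change 1.498, adjusted p = 0.0214). The groups were apart in all 3. The calls of Daglb and Gnat1 were lost without Rab30L-/- replicates 2 or 4 or ff;ff replicate 2 (adjusted p up to 0.0629 and 0.0676), and that of Gnat1 also without ff;ff replicates 1 or 3. Tram2, a component of the endoplasmic reticulum translocon linked to collagen synthesis, was at 77.4, 97.9, 51.6 and 70.1 CPM against 30.9, 37.6, 34.0 and 35.5 CPM (log2 fold change 1.10, adjusted p = 0.0276). Thnsl2 (42.2 and 22.5 CPM on average), Farp1, a guanine nucleotide exchange factor (25.7 and 13 CPM), and Accs (8.43 and 3.68 CPM) rose, with log2 fold changes of 0.90, 0.98 and 1.19. Tcp11l1, Dusp12, Nhsl1, Asb2 and Mkx, at means of 9.26, 9.38, 7.54, 2.21 and 3.15 CPM in Rab30L-/-, had log2 fold changes of 1.96, 1.73, 1.38, 3.05 and 2.23. Dusp12, a dual specificity phosphatase, overlaps the noncoding gene Gm9929 (log2 fold change 1.96, a call lost without 7 of the 8 libraries), so that their reads cannot be told apart without strand. Of the genes of this paragraph, the calls of Dab1 and Dusp12 held in every fit without 1 library that they entered, that of Nhsl1 was lost without Rab30L-/- replicate 4 (adjusted p = 0.0676), and those of Tram2, Thnsl2, Farp1, Accs, Tcp11l1, Asb2 and Mkx were lost without 4 to 7 of the 8 libraries.

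Among the 41 Rab GTPases tested, edgeR called Rab36 higher and 0 lower, where 0.299% and 0.18% of all genes tested were called higher and lower. DESeq2 and limma-voom each called 1 higher and 2 lower. Rab36, a Rab linked to the Golgi and late endosomes, was at 14.9, 9.49, 15 and 14 CPM in Rab30L-/- against 6.99, 7.04, 5.23 and 5.97 CPM in ff;ff (log2 fold change 1.08, standard error 0.20, edgeR adjusted p = 0.0402). Rab30L-/- replicate 2 was the lowest of its group and still above the controls, and the call was lost with any library but Rab30L-/- replicate 2 left out (adjusted p up to 0.134). Per length, in the deposited FPKM, Rab36 had means of 2.18 and 1.04 and Rab30 means of 1.78 and 3.87 in Rab30L-/- and ff;ff. By these means Rab30 was the higher of the pair in ff;ff and not in Rab30L-/-. In Rab30L-/- replicate 3, however, Rab30 was the higher, at 2.71 FPKM against 2.39 for Rab36. Rab27a and Rab9, which with Rab30 were the 3 Rab genes lower without adjustment (4.81% of all genes were), had log2 fold changes of -1.20 and -0.50 (adjusted p = 0.152 and 0.219). The median over the Rab genes was -0.01.

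Among genes of the circadian clock 1 was called by edgeR. Dbp, a transcription factor driven directly by the clock whose liver RNA peaks late in the light phase, was at 97.5, 95.3, 122.9 and 111 CPM in Rab30L-/- and at 27.8, 33.1, 38.8 and 60.2 CPM in ff;ff. Every Rab30L-/- liver was above every ff;ff liver, and ff;ff replicate 4 was the nearest. The log2 fold change was 1.41 (SE 0.21, edgeR adjusted p = 0.0153), and the call was lost without Rab30L-/- replicate 4 or ff;ff replicate 2 (adjusted p = 0.0623 and 0.0553) and in the fit over all 24 libraries (0.0834). Of the 19 clock genes tested, 5 passed as higher and 2 as lower without adjustment, where 6.37% and 4.81% of all genes did, and the median log2 fold change was 0.05. DESeq2 and limma-voom called 3 each, all higher. Nr1d1, Bhlhe41 and Per3, chosen after their values were seen, had log2 fold changes of 1.25, 1.56 and 1.04 (adjusted p = 0.0625, 0.0594 and 0.264). Nr1d1, which encodes the repressor Rev-erbα, was at 91.8, 42.1, 48.4 and 46.3 CPM against 18, 24.2, 26.6 and 27.0 CPM. The study's methods give the same collection time in the afternoon for all mice, and the hour of each collection was not tested.

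Among the genes that fell was a central gene of the fasting liver. G6pc, the catalytic subunit of glucose-6-phosphatase that releases glucose from the liver, was at 357, 290, 495 and 262 CPM in Rab30L-/- and at 872, 748, 1163 and 611 CPM in ff;ff. The lowest ff;ff liver was above the highest Rab30L-/- liver. The log2 fold change was -1.28 (SE 0.24, edgeR adjusted p = 0.0423), and the call of G6pc held without Rab30L-/- replicate 3 or ff;ff replicate 4 and was lost without any other library (adjusted p up to 0.148). It was not called in the fit over all 24 libraries of the study. Of 36 genes of gluconeogenesis and glycogen, G6pc was the only one called by edgeR, 8 passed as lower and 3 as higher without adjustment, against 4.81% and 6.37% of all genes tested, and the median was -0.03. DESeq2 called 5 of them lower and limma-voom 4. Tsc22d3, which encodes the glucocorticoid-induced leucine zipper GILZ, was at 127, 94.9, 114 and 84.3 CPM in Rab30L-/- and at 214, 210, 262 and 189 CPM in ff;ff. The groups were clearly apart, with a log2 fold change of -1.07 (SE 0.17, adjusted p = 0.0177), and the call of Tsc22d3 was lost without Rab30L-/- replicates 2 or 4 (adjusted p = 0.0666 and 0.0712).

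The list of 22 glucocorticoid-induced genes and metallothioneins held 1 gene called by edgeR, Tsc22d3, where DESeq2 and limma-voom called 4 each, all lower. Without adjustment 7 of the 22 passed as lower and 0 as higher, against 4.81% and 6.37% of all genes tested, and 17 were below 0 with a median of -0.55. This median was between -0.83 and -0.32 with each library left out, nearest 0 without ff;ff replicate 3. In the summed level of the list the groups overlapped, at 14080, 11420, 12460 and 14010 CPM in Rab30L-/- and 13450, 17300, 26930 and 14970 CPM in ff;ff, where replicate 3 was the highest. Dusp1, an immediate phosphatase of stress and glucocorticoid signalling, was chosen after its values were seen and had a log2 fold change of -1.20 (adjusted p = 0.18). Its levels were 22.7, 21.7, 36 and 24.3 CPM against 29.3, 70.0, 91.2 and 48.4 CPM, and they overlapped.

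The genes with the lowest p among those that fell were not members of these metabolic lists. Pttg1 encodes securin, which keeps sister chromatids from separating before anaphase. It was at 1.51, 1.90, 1.22 and 0.835 CPM in Rab30L-/- and at 18.9, 11.4, 16.3 and 11.2 CPM in ff;ff. Its log2 fold change was -3.42 (SE 0.29, edgeR adjusted p = 0.000236). Of 23 cell cycle genes tested Pttg1 was the only one called by edgeR, where 0.18% of all genes tested were called lower. DESeq2 called 1 higher and 1 lower and limma-voom 1 lower. Without adjustment 1 passed as higher and 2 as lower, against 6.37% and 4.81% of all genes tested, and the median of the list was -0.05. Hjurp, the chaperone that loads the centromeric histone, was at 38.2, 47.4, 30.8 and 46.1 CPM against 121, 109, 107 and 115 CPM (log2 fold change -1.48, standard error 0.16, adjusted p = 0.00181). In both genes the groups did not overlap.

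Atp1b1, the β subunit of the sodium-potassium pump, fell from 349, 237, 494 and 257 CPM in the ff;ff livers to 77.5, 76.0, 102 and 70.7 CPM in the Rab30L-/- livers (log2 fold change -2.04, standard error 0.23, edgeR adjusted p = 0.00228). It was the most abundant gene after G6pc among the protein-coding genes that fell, by counts in ff;ff. Gstk1, a glutathione transferase of mitochondria and peroxisomes, was at 78.7, 91.5, 106 and 80.1 CPM against 235, 147, 140 and 243 CPM (log2 fold change -1.10, adjusted p = 0.0352). Atox1, the copper chaperone that hands copper to the Golgi ATPases, was at 31.6, 28.7, 30.7 and 23.7 CPM against 60.5, 52.0, 63.9 and 49.4 CPM (log2 fold change -0.98, adjusted p = 0.012). In Atp1b1, Gstk1 and Atox1 all Rab30L-/- livers were below all ff;ff livers, and the call of Gstk1 was lost without any library but ff;ff replicates 2 or 3 (up to 0.129). Car14, a membrane-bound carbonic anhydrase, fell from 63.6 ± 8.01 to 32.0 ± 7.46 CPM, and Yod1, a deubiquitinase of endoplasmic reticulum-associated degradation, from 39.2 ± 7.61 to 19.5 ± 4.22 CPM (SD, n = 4). Their calls were lost without 6 and 7 of the 8 libraries, and that of Atox1 without 1 (Rab30L-/- replicate 4, adjusted p = 0.0623) and in the fit over all 24 libraries (0.0524).

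The other protein-coding genes that fell were of lower level. Celsr1, a cadherin of planar cell polarity, was at 8.46, 14.1, 9.27 and 8.96 CPM in Rab30L-/- against 17.4, 21.1, 32.1 and 28.2 CPM in ff;ff (log2 fold change -1.29, edgeR adjusted p = 0.0338). Cavin2, a coat protein of caveolae found chiefly in endothelial cells and adipocytes, was at 11.7, 7.42, 11.9 and 12.2 CPM against 21.7, 28.3, 22.9 and 19 CPM (log2 fold change -1.09, adjusted p = 0.0352). Plekhb2 was at 2.34, 5.69, 2.89 and 3.26 CPM against 14.8, 15.1, 8.50 and 17.3 CPM (log2 fold change -1.99, adjusted p = 0.0153). The groups did not overlap in these 3 genes. The call of Plekhb2 was lost without Rab30L-/- replicate 4 (adjusted p = 0.0648), that of Celsr1 without any library but Rab30L-/- replicate 2 or ff;ff replicate 1, and that of Cavin2 without any but Rab30L-/- replicate 1 or ff;ff replicate 4. Ublcp1, a proteasome phosphatase, had means of 13.7 and 29.1 CPM, and 20.2 ± 2.64 against 33.5 ± 7.97 CPM (SD, n = 4) when summed with its near-identical copy Gm12663 (its own call was lost without 6 of the 8 libraries). Obp2a, an odorant-binding lipocalin with sex-biased liver expression, had means of 0.674 and 5.87 CPM, Enpp6, a choline phosphodiesterase, 1.01 and 4.28 CPM, Bmp7, a growth factor, 0.637 and 2.33 CPM, and Ephb6, an ephrin receptor, 0.295 and 2.01 CPM in Rab30L-/- and ff;ff. Their log2 fold changes were -3.13, -2.08, -1.88 and -2.79, and their calls were lost without 5, 7, 7 and 5 of the 8 libraries.

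Btnl9, a butyrophilin-like gene of endothelial cells, was at 0.679, 1.73, 0.671 and 0.607 CPM in Rab30L-/- and at 5.50, 3.31, 6.41 and 3.05 CPM in ff;ff (log2 fold change -2.33, edgeR adjusted p = 0.0338). It was the only member called by edgeR of 12 markers of sinusoidal and other endothelial cells. Of the 12, 11 were below 0 with a median of -0.43, and 4 passed as lower without adjustment, as did 4.81% of all genes tested. DESeq2 called 2 and limma-voom 4 of them lower. The median was between -0.58 and -0.285 with 1 library left out, nearest 0 without ff;ff replicate 3. The summed level of these markers was 290, 338, 316 and 294 CPM in Rab30L-/- and 306, 443, 421 and 370 CPM in ff;ff, with ff;ff replicate 1 within the range of the Rab30L-/- livers. The call of Btnl9 was lost without 6 of the 8 libraries, all but Rab30L-/- replicate 2 and ff;ff replicate 4, and it was not called in the fit over all 24 libraries.

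Near-identical copies bear on 18 of the 64 called genes, counted as at least 95% identity over at least 50% of a transcript to a gene that does not overlap it in the genome. The gene with the smallest p in the whole comparison is of this kind. Rpl34, a protein of the large ribosomal subunit, was at 63.4, 51.3, 61.2 and 65.1 CPM in Rab30L-/- and at 1.49, 3.78, 2.44 and 3.49 CPM in ff;ff (log2 fold change 4.39, standard error 0.25, edgeR adjusted p = 7.66e-06). Its processed pseudogene Rpl34-ps1 on chromosome 6, 99.4% identical over the aligned part, moved the other way, from 162, 102, 113 and 144 CPM in ff;ff to 63.7, 59.9, 70.1 and 67.7 CPM in Rab30L-/- (log2 fold change -0.997, adjusted p = 0.0189). Neither gene's groups overlapped, and the call of Rpl34-ps1 was lost without Rab30L-/- replicates 2 or 4 or ff;ff replicate 4 (adjusted p up to 0.0693) and in the fit over all 24 libraries (0.625). Summed over Rpl34 and its 5 copies, the level was 127 ± 10.4 CPM in Rab30L-/- and 135 ± 26.9 CPM in ff;ff (SD, n = 4), a ratio of 0.943, and the groups overlapped. Per length, the mean FPKM of Rpl34-ps1 was 186 in Rab30L-/- and 374 in ff;ff, and that of Rpl34 was 23.0 and 1.08.

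Other copies gave sums that were closer than the single genes in most cases. Rpl21, another ribosomal protein gene (log2 fold change 3.16, edgeR adjusted p = 0.0352), rose with its pseudogenes Rpl21-ps15 (1.06), Rpl21-ps8 and Gm12411, while the family sum was 94.9 ± 18.6 CPM in Rab30L-/- against 68.6 ± 6.35 CPM in ff;ff (SD, n = 4), with Rab30L-/- replicate 4 below ff;ff replicate 4. The call of Rpl21 was lost without Rab30L-/- replicate 2 or any 1 of the ff;ff libraries (adjusted p up to 0.121). The family sums of Rpl3-ps1, Gm4963 (with Rps25), Gm15502 (with Vdac1) and Gm8741 (with Snu13) had ratios of 1.1, 1.05, 1.04 and 0.872 between the groups, although each of these pseudogenes alone rose. The call of Rpl3-ps1 was lost without ff;ff replicate 3 (adjusted p = 0.052) and that of Gm4963 without ff;ff replicate 2 (adjusted p = 0.0553). The calls of Gm15502 and Rpl21-ps15 were each lost without 7 of the 8 libraries (up to 0.148 and 0.129), and Gm8741 and Gm4963 were not called in the fit over all 24 libraries (0.151 and 0.231). Over all 81 cytosolic ribosomal proteins, edgeR called 2 higher, Rpl34 and Rpl21, where 0.299% of all genes tested were called higher. DESeq2 called 2 and limma-voom 1, all higher, and the median was 0.03. mt-Atp6, a subunit of the mitochondrial ATP synthase encoded in mitochondrial DNA, fell from 191, 179, 182 and 141 CPM to 77.2, 75.7, 96.2 and 59.9 CPM (log2 fold change -1.17, standard error 0.16, adjusted p = 0.00921). mt-Atp6 was not called in the fit over all 24 libraries (adjusted p = 0.241). The nuclear copy Gm10925 is 100% identical to it. The sum of mt-Atp6 and Gm10925 was 164 ± 26.7 CPM in Rab30L-/- and 329 ± 67.5 CPM in ff;ff, a ratio of 0.498. Of 91 genes of oxidative phosphorylation mt-Atp6 was the only one called by edgeR, where 0.18% of all genes tested were called lower. DESeq2 called 3 lower and limma-voom 2. Without adjustment 0 passed as higher and 5 as lower, against 6.37% and 4.81% of all genes tested, and the median was -0.03. Gm29216 and Gm13340, pseudogenes near-identical to mt-Co1, fell (log2 fold changes -1.14 and -1.12), while mt-Co1 summed with both was 19590 ± 685 CPM against 25440 ± 7729 CPM, with overlap. The call of Gm29216 was lost without 7 of the 8 libraries (adjusted p up to 0.0986) and that of Gm13340 without 5 (up to 0.131), and neither was called in the fit over all 24 libraries (0.253 and 0.0975).

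The noncoding gene or pseudogene with the largest rise was Adh6-ps1, an unprocessed pseudogene of an alcohol dehydrogenase on chromosome 3 (chr3:138374121-138395002, plus strand). It was at 5.36, 7.17, 9.14 and 9.03 CPM in Rab30L-/- and had 0 counts in all 4 ff;ff libraries, at least 37.4-fold higher (edgeR adjusted p = 0.000236). Gm12411 was at least 8.3-fold and Rpl21-ps8 at least 13-fold higher, and the noncoding Gm15611 at least 7.19-fold, a call that was lost without Rab30L-/- replicate 2 or ff;ff replicates 1, 2 or 3 (adjusted p up to 0.0631). Among the called genes, the largest fitted falls were those of the noncoding 2610507I01Rik on chromosome 11 and of the pseudogene Gm4956 on chromosome 1. The first fell from 4.63, 3.78, 7.11 and 3.55 CPM to 0, 0.247, 0.377 and 0.0759 CPM (log2 fold change -4.55, edgeR adjusted p = 0.00311). The second fell from 10.4, 4.61, 8.37 and 6.09 CPM to 0.0755, 0.33, 0.629 and 0.228 CPM (log2 fold change -4.39, adjusted p = 0.00144). In Rab30L-/- 2610507I01Rik had 0, 3, 9 and 1 counts and Gm4956 had 1, 4, 15 and 3, so these fitted values depend on a prior count and their order is uncertain. In each of these genes the groups did not overlap.

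**Figure D3:**
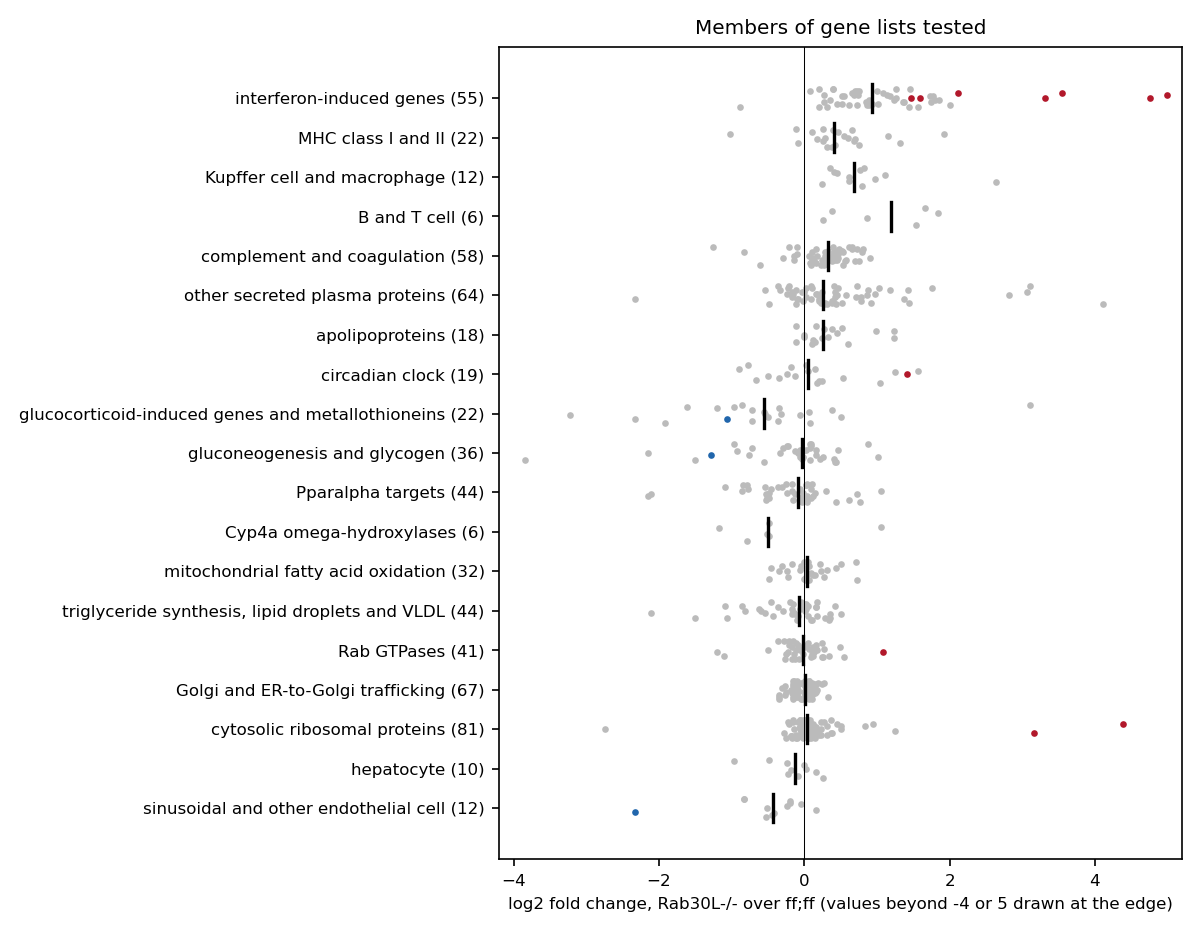
Log2 fold change of Rab30L-/- over ff;ff (horizontal axis) for the members of 19 gene lists, each dot a gene, with the number of genes tested in parentheses. Black bars are list medians, red and blue dots are genes past the thresholds, and grey dots are genes not past them; the interferon-induced list has a median of 0.93 and 7 red dots, and the Golgi list has a median of 0.0067 and none.

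The listed genes of the compartment where Rab30 resides, Rab genes not included, did not pass the test. Of 67 genes of the Golgi and of transport from the endoplasmic reticulum to it, 0 were called by edgeR, DESeq2 or limma-voom, 1 passed as higher and 1 as lower without adjustment, where 6.37% and 4.81% of all genes tested did, and the median was 0.0067. Their log2 fold changes ran from -0.36 (Arfgef2) to 0.32 (Sec24c). Arfgef2, which activates Arf GTPases at the trans-Golgi network, had means of 87.9 and 112 CPM (edgeR adjusted p = 0.295), and Sec24c, a cargo-binding subunit of COPII vesicles, means of 129 and 103 CPM (adjusted p = 0.359). Of 20 genes whose proteins the study names as near Rab30 in hepatocytes, 0 were called by any of these tools and 1 passed without adjustment, with a median of 0.01. Chaperones and unfolded protein response genes (48 tested, median 0.07) and lysosome and autophagy genes (56 tested, median 0.01) had 0 called genes each by the same tools, with 3 and 2 higher and 0 lower without adjustment.

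Lists of secreted liver proteins held no gene called by edgeR. Of 58 complement and coagulation genes, 12 passed as higher and 1 as lower without adjustment, against 6.37% and 4.81% of all genes tested, 49 were above 0, as were 50.4% of all genes, and the median was 0.32. DESeq2 called 3 of them higher and limma-voom 4. Their summed level was 43690, 68050, 37320 and 46790 CPM in Rab30L-/- and 38150, 30360, 38830 and 39930 CPM in ff;ff, so that Rab30L-/- replicate 2 was the highest and replicate 3 lay among the controls. The median was 0.18 without Rab30L-/- replicate 2. Serpinf2, the inhibitor of plasmin, was at 805, 1086, 1121 and 1045 CPM against 570, 521, 722 and 582 CPM (log2 fold change 0.75, edgeR adjusted p = 0.1), and C2 of the classical complement pathway had means of 63.6 and 40.3 CPM (adjusted p = 0.152). C8a, of the membrane attack complex, had means of 706 and 376 CPM (adjusted p = 0.194) and Cfi, a complement protease, 685 and 461 CPM (adjusted p = 0.29). Of 64 other plasma proteins, 46 were above 0 (median 0.26), 8 passed as higher and 2 as lower without adjustment, and 0 were called by edgeR, where DESeq2 called 1 higher and 1 lower. Serpina10, a cofactor-dependent inhibitor of clotting factor Xa, had means of 178 and 97.5 CPM (adjusted p = 0.109). Among 18 apolipoproteins, 14 were above 0 (median 0.26), 4 passed as higher without adjustment, 0 were called by edgeR and 1 by DESeq2, with Apol9a at 66.7 and 28.2 CPM (adjusted p = 0.155) and Apom, a carrier of sphingosine-1-phosphate on HDL, at 254 and 167 CPM (adjusted p = 0.211).

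The lists of targets of the fatty acid receptor Pparα and of lipid metabolism given in this paragraph held no gene called by edgeR. Of 44 Pparα targets tested, 9 passed as lower and 3 as higher without adjustment, against 4.81% and 6.37% of all genes tested, and the median was -0.09. DESeq2 called 1 higher and 4 lower, and limma-voom 4 lower. Pdk4, the kinase that shuts off pyruvate dehydrogenase in fasting, was at 7.17, 5.28, 5.53 and 6.30 CPM in Rab30L-/- and at 11, 40.2, 40.9 and 14.9 CPM in ff;ff. The ff;ff livers fell into a lower pair and a higher pair, both above the Rab30L-/- livers, and the log2 fold change of -2.16 missed the threshold (edgeR adjusted p = 0.0872). Plin4, a lipid droplet protein, was at 10.6, 12.9, 17.9 and 11.3 CPM against 12.2, 75.2, 75.1 and 62.8 CPM (adjusted p = 0.181), with ff;ff replicate 1 among the Rab30L-/- livers. Txnip and Angptl4, an inhibitor of lipoprotein lipase, had log2 fold changes of -0.85 and -0.86 (adjusted p = 0.186 and 0.189). Of 44 genes of triglyceride synthesis, lipid droplets and VLDL, 8 passed as lower and 1 as higher without adjustment (median -0.07), against the same shares of all genes, and DESeq2 called 2 and limma-voom 3 of them lower, with Plin4, Angptl4, Fitm2 (-0.60) and Gpat4 (-0.63) the nearest to the threshold. Mitochondrial fatty acid oxidation (32 tested, median 0.03), peroxisome (42, median -0.01), de novo lipogenesis (24, median 0.03), cholesterol synthesis (31, median -0.08) and bile acid genes (26, median 0.06) had 0 genes called by edgeR, with 3, 3, 3, 2 and 2 passing as higher and 1, 2, 3, 3 and 2 as lower without adjustment. DESeq2 called 2, 1, 0, 1 and 1 of them. Of the 6 Cyp4a omega-hydroxylases tested, 2 passed as lower and 1, Cyp4a32 (log2 fold change 1.06, adjusted p = 0.351), as higher without adjustment. DESeq2 and limma-voom each called 1 of the 6 lower. Their median was -0.50, and Cyp4a14, a sensitive Pparα target, had means of 4634 ± 1929 and 7978 ± 1026 CPM (SD, n = 4; adjusted p = 0.299).

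Of 36 xenobiotic cytochromes P450 tested, edgeR called 0, DESeq2 and limma-voom called 3 higher and 1 lower, and 4 passed as higher and 2 as lower without adjustment. The shares of all genes tested that passed in this way, 6.37% higher and 4.81% lower, apply to each list below as well. Cyp3a11, the main drug-metabolizing Cyp3a enzyme of mouse liver, was at 2610, 1412, 1101 and 842 CPM in Rab30L-/- and at 6348, 4533, 4425 and 3937 CPM in ff;ff, without overlap. Its log2 fold change of -1.69 was just short of the threshold in edgeR (adjusted p = 0.0511) and past it in DESeq2 (1.5e-05) and limma-voom (0.0211). Cyp3a13, of the same subfamily, went the other way, at 237, 671, 217 and 407 CPM against 138, 77.2, 102 and 97.4 CPM (log2 fold change 1.89, edgeR adjusted p = 0.0571). Cyp2c54 and Cyp2c50 had log2 fold changes of 0.93 and 1.02 (adjusted p = 0.109 and 0.16). Urea cycle and amino acid catabolism genes (50 tested, 0 called by edgeR and 3 by DESeq2, median -0.0011) and pericentral genes (30 tested, 0 called by edgeR and 1 by DESeq2, median -0.03) were centred near 0, with 7 and 5 passing without adjustment. Of 25 periportal genes edgeR called G6pc alone, DESeq2 2 and limma-voom 1, all lower (median 0.12). Of 45 transferases of conjugation edgeR called Gstk1 alone, DESeq2 3 and limma-voom 2, all lower (median -0.02). Nuclear receptors (28 tested, median 0.01), acyl-CoA thioesterases (11, median -0.23), Nrf2 antioxidant genes (30, median -0.04) and major urinary proteins (18, median -0.13) had 0 genes called by edgeR and 0, 0, 2 and 1 by DESeq2, with 4, 1, 3 and 3 passing without adjustment. Among 34 growth hormone and sex-biased genes edgeR called Obp2a alone, DESeq2 2 lower and limma-voom 0 (median 0.20).

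The remaining marker lists gave no gene called by edgeR, and DESeq2 called 2 hepatocyte markers lower. Medians were -0.13 for 10 hepatocyte markers, 0.41 for 6 bile duct markers and 0.23 for 6 red blood cell markers, with 2, 0 and 1 of them lower without adjustment (4.81% of all genes tested were). Of pancreas and gut markers 3, of adipocyte markers 2 and of skeletal muscle markers 0 had enough counts to be tested.

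The 64 called genes were spread over 18 of the 22 chromosomes with genes tested, the mitochondrial one included. Chromosome 1 held 14 of them (1.74% of its 803 genes tested, against 0.479% of all) and chromosome 11 held 8 (0.751%). The 14 include the Ifi200 genes and Dusp12 with Gm9929. Around Rab30 on chromosome 7, none of the 36 genes tested within 5 Mb and none of the 105 within 10 Mb was called. Around Cpt2 on chromosome 4, Dab1 alone was called of 55 genes within 5 Mb and of 128 within 10 Mb. These counts are a description with no test.

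The livers of the other genotypes were then set beside these genes. Each was assigned, in log2 CPM, to the nearer of the Rab30L-/- and ff;ff means. For 30 of the 64 genes all 4 DKO livers, which lack Rab30 and Cpt2 in hepatocytes and are littermates of the ff;ff mice, lay nearer to ff;ff. For 32 genes all 4 Cpt2L-/- livers, which have intact Rab30, lay nearer to Rab30L-/-, and for 8 genes both held. For 9 genes all 4 DKO livers lay nearer to Rab30L-/-, and for 21 genes all 4 Cpt2L-/- livers lay nearer to ff;ff. In none of the 64 did these go together. The same counts were not made over all genes tested, and the 64 were chosen for their gap between Rab30L-/- and ff;ff. They are therefore a description with no test.

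**Figure D4:**
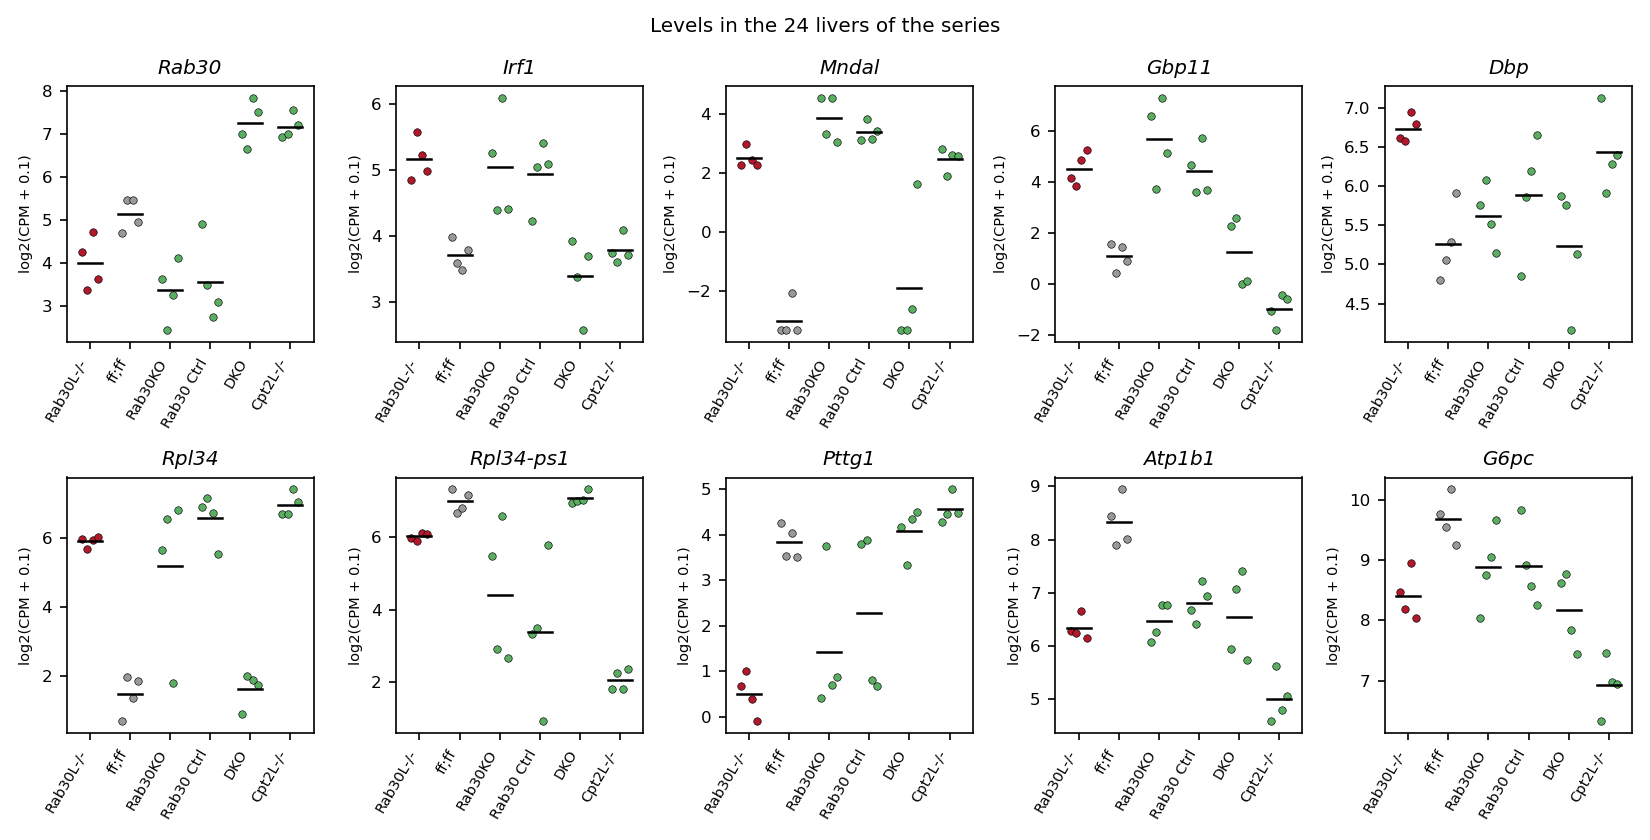
Level of 10 genes in all 24 livers of the study, as log2(CPM + 0.1) on vertical axes that differ between panels, with each dot a liver and black lines the mean of each group's log2 values. Red dots are Rab30L-/-, grey dots ff;ff and green dots the other 4 groups; Rpl34 is low in ff;ff, in all 4 DKO livers and in 1 Rab30KO liver, and Rpl34-ps1 is high where Rpl34 is low.

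Several of the largest changes were among these genes. Rpl34 was at 1.75 to 3.87 CPM in DKO, like ff;ff, and at 104 to 172 CPM in Cpt2L-/-. In the 8 livers of whole-body Rab30KO mice and their littermates (Rab30 Ctrl), Rpl34 was at 3.32 CPM in Rab30KO replicate 3 and at 46.4 to 143 CPM in the other 7. Adh6-ps1 had 0 counts in the same Rab30KO liver and in all 4 DKO livers, as in ff;ff, and was at 4.87 to 11.5 CPM in Cpt2L-/-. Mme was at 0.065 to 0.387 CPM in DKO and at 1.62 to 3.97 CPM in Cpt2L-/-. Mndal was at 0 CPM in DKO replicates 1 and 2, 0.065 CPM in replicate 3 and 3 CPM in replicate 4, and at 3.59 to 6.86 CPM in Cpt2L-/-. Pttg1 split the livers of the whole-body groups, at 1.24 to 1.75 CPM in 3 Rab30KO and 2 Rab30 Ctrl livers and at 13.3 to 14.6 CPM in the other 3. For Rpl34, Adh6-ps1 and Pttg1, livers of 1 genotype thus lay as far apart as those of Rab30L-/- and ff;ff.

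The calls of 4 interferon-induced genes, Irf1, Gbp11, Ifi204 and Mndal, held in every alternative fit that they entered, and Irf1, Gbp11 and Ifi204 are given here in the other groups. Irf1 was at 20.8 to 68.0 CPM in Rab30KO and 18.5 to 42.0 CPM in Rab30 Ctrl, where the ff;ff livers were at 11 to 15.7 CPM, and at 5.85 to 15.1 CPM in DKO and 12.1 to 17.0 CPM in Cpt2L-/-. Gbp11 was at 13.2 to 159 CPM in Rab30KO and 12.2 to 53.0 CPM in Rab30 Ctrl, against 0.911 to 6 CPM in DKO and 0.189 to 0.647 CPM in Cpt2L-/-. In both genes the Rab30L-/- livers lay within the range of the whole-body mice and their controls, and ff;ff within or near the range of DKO. Ifi204 was at 8.19 to 21.9 CPM in Rab30KO and 8.76 to 11.1 CPM in Rab30 Ctrl, at 1.29 to 4.08 CPM in DKO and at 4.53 to 6.22 CPM in Cpt2L-/-. For Ifi204, as for Mndal, all 4 Cpt2L-/- livers lay nearer to Rab30L-/-, and for Irf1 and Gbp11 all 4 lay nearer to ff;ff.

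The difference between the effects of liver and whole-body loss of Rab30 was tested over 16 libraries, which share no samples between the arms. Of 14304 genes, 3 differed (0.021%): Mndal, Dab1 and Gm4956, and DESeq2 found 59. All 3 were among the 64, which is not independent of their having been called in 1 arm of the test. In simulated counts with 200 genes changed 2-fold, this edgeR test recovered 8% of them. A small count therefore does not show that the effects were alike. The fitted change of Gm4956 was -4.39 in Rab30L-/- against ff;ff and 2.41 in Rab30KO against Rab30 Ctrl, a difference of -6.84 (SE 0.74, edgeR adjusted p = 0.00047). For none of the 64 genes were all 4 Rab30KO livers nearer to Rab30L-/- with all 4 Rab30 Ctrl livers nearer to ff;ff. In Rab30KO against Rab30 Ctrl itself, edgeR called 3 genes (0.022% of those tested), none of them among the 60 of the 64 that had a value there. Of these 60, 30 had the opposite sign there, as did 53.9% of all genes with a value in both.

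The difference from the effect of Rab30 loss in the absence of Cpt2 (DKO against Cpt2L-/-) was tested in the same way. Of 14063 genes, 571 differed (4.06%), 261 more positive and 310 more negative in Rab30L-/- against ff;ff. Of the 64 called genes 53 were among them, which is not independent of their having been called in 1 arm of the test. Of 57 called genes with a value in both, 45 had the opposite sign in DKO against Cpt2L-/-, as did 60.9% of all genes with a value in both. Of the 57, 13 passed the thresholds there with the opposite sign and 0 with the same sign, where 2.71% of all genes passed in either direction. G6pc fell by 1.28 on the log2 scale in Rab30L-/- and had a log2 fold change of 1.30 in DKO against Cpt2L-/- (edgeR adjusted p = 0.0718 for the latter and 0.00291 for the difference). Irf1 had log2 fold changes of 1.46 and -0.31, a difference of 1.77 (SE 0.32, adjusted p = 0.00428), and Rab36 of 1.08 and -1.16, a difference of 2.24 (SE 0.26, adjusted p = 5.86e-05). The labels name ff;ff as littermates of DKO and name no litter for Rab30L-/- or Cpt2L-/-, so litter and genotype cannot be told apart in this test.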

How the data were processed

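Liver RNA-seq libraries of 4 Rab30L-/- and 4 ff;ff mice were compared, and those of the other 16 mice served as context. The authors deposited raw read counts per gene, made from reads aligned to GRCm38 (mm10) with HISAT2 per the submitters' processing notes, which also list DESeq2. The counter, annotation and strand setting are not given in the sources used here. The authors also deposited FPKM values, used here only to compare levels per length, and tables of their own comparisons with fold changes and p-values, which were not used.

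Counts were tested with edgeR 4.0.16 in R 4.3.3 (filterByExpr, TMM factors, robust quasi-likelihood fit with the group as the only term, Benjamini-Hochberg adjustment over 13367 genes). CPM values use TMM factors of all 24 libraries. Differences between comparisons were tested as contrasts in fits of 16 libraries. A gene past the thresholds had an adjusted p under 0.05 and a fold of 1.2 or more. Folds against a group with at most 3 counts in every library are bounds. Library depth was 13230854 to 24497738 counts, and the floor of 3 counts covers counting error only. The scripts were tested on simulated counts with 200 genes changed 2-fold. For Rab30L-/- against ff;ff edgeR recovered 51% of them, with 10 false calls. For the differences from the whole-body and the DKO comparisons it recovered 8% and 23%, with 1 and 3 false calls. Alternatives were DESeq2 1.42.0, limma 3.58.1 with quality weights, other scaling and filters, and leaving out each library. Named genes were Rab30, Cpt2 and the protein-coding genes past the thresholds. Of the latter, values in every library were given for up to 20 higher and 15 lower, by absolute log2 fold change. Also named were the 2 called pseudogenes or noncoding genes with the largest rise and fall. From each list, the members past the thresholds were named, or else up to 4 with the smallest p. Other pseudogenes and any other gene were named after their values were seen. The members and gene lists were chosen with earlier results of these data known.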

Additional observations from a re-analysis of the deposited data

Results flagged for a closer look

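A library stood apart from the other 3 of its group in 15 of 238 pairs of a named gene and a group, 9 of them among 128 pairs of called genes, and chance gives about 1 in 20. Rab30L-/- replicate 2 was such a library in 6 of the 15. It was the lowest of its group for Cavin2 (7.42 CPM) and Rab36 (9.49 CPM), both described above, and the highest for Celsr1 (14.1 CPM), Btnl9 (1.73 CPM), Ifi203 (9.65 CPM) and Itih1, a plasma protein (1039 CPM). Rab30L-/- replicate 1 was the highest for Obp2a (1.21 CPM), Cyp4a32 (375 CPM) and Nr1d1 (91.8 CPM). Rab30L-/- replicate 3 was the lowest for Cyp2c54 (153 CPM) and the highest for Sec24c (141 CPM), and Rab30L-/- replicate 4 was the highest for Accs (10.7 CPM). For genes with almost no counts in the controls, the only ff;ff library with any reads stood out, which was replicate 3 for Mndal (0.139 CPM) and replicate 4 for Gm12411 (0.0635 CPM) and Ifi213 (0.127 CPM).

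The change between Rab30L-/- and ff;ff differed from that between Rab30KO and Rab30 Ctrl, by the edgeR test of the difference, for Mndal (difference 6.41 on the log2 scale), Dab1 (6.51) and Gm4956 (-6.84). Where a gene had almost no counts in a group, here and in what follows, the fitted difference depends on a prior count and is not a bound.

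The change also differed from that between DKO and Cpt2L-/- for 53 of the called genes and for Cpt2 (difference 0.99). Since the 53 were called in 1 arm of this test, the differences, given here as the log2 fold change of Rab30L-/- over ff;ff less that of DKO over Cpt2L-/-, are a description. Of the interferon-induced and innate immune genes these were Irf1 (1.77), Gbp3 (1.72), Ifi204 (3.26), Ifi213 (7.16), Mndal (9.74), Trim14 (1.404), Ikbke (1.26) and Zc3h12d (5.34). The clock gene and the metabolic and signalling genes that rose were Dbp (2.52), Daglb (2.56), Gnat1 (1.81), Thnsl2 (1.75), Accs (1.598), Farp1 (1.04), Dusp12 (2.80), Nhsl1 (3.06), Tcp11l1 (1.93) and Rab36 (2.24). Genes of secreted, surface or matrix proteins that rose were Rarres1 (6.11), Mme (7.34) and Col15a1 (3.07). Ribosomal protein genes, pseudogenes and noncoding genes that rose were Rpl34 (9.74), Rpl21 (5.95), Rpl21-ps8 (8.89), Rpl21-ps15 (2.29), Rpl3-ps1 (2.23), Adh6-ps1 (19.87), Gm12411 (8.99), Gm8741 (4.65), Gm15611 (4.81), Gm4963 (5.10), Gm15502 (2.90) and Gm9929 (3.77). Among genes that fell, those of metabolism, transport and hormone response were G6pc (-2.58), Tsc22d3 (-1.59), Atp1b1 (-3.70), Gstk1 (-2.11), Car14 (-1.51), Enpp6 (-3.20) and Obp2a (-6.28). The other protein-coding genes that fell were Pttg1 (-3.00), Celsr1 (-2.79), Cavin2 (-1.67), Plekhb2 (-1.39), Bmp7 (-2.78), Ephb6 (-4.04), Yod1 (-1.13) and Ublcp1 (-1.14). Pseudogenes and noncoding genes that fell were Rpl34-ps1 (-6.06), Gm13340 (-1.12), Gm29216 (-1.38), Gm4956 (-4.39) and 2610507I01Rik (-3.93).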

How the results depend on the processing

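Counts of genes past the thresholds moved with the tool and the filter, from 64 to 298 with the DESeq2 Wald test (64 of the 64 among them), 236 with limma-voom (59), 240 with no filter on low counts (62), 25 with at least 10 counts in every library (25) and 1495 with no adjustment of p. The fit over all 24 libraries gave 94 genes (40 of the 64), 1.47 times as many. Leaving out 1 library at a time, the count ran from 23 (without Rab30L-/- replicate 4) to 93 (without Rab30L-/- replicate 1). It was also under the main count by over 1.5 times without Rab30L-/- replicate 2 (35) and ff;ff replicate 2 (37). The count of genes whose change differed from that in Rab30KO was 59 with DESeq2 in place of 3, and 3 to 11 with each library left out. The count that differed from DKO against Cpt2L-/- was 1080 with DESeq2 in place of 571, and 300 to 679 with each library left out. The cause of these shifts was not tested. None of the named genes that were followed through these settings, which do not include Csf3r, changed direction. The median log2 fold change of bile duct cell markers was 0.41 over 6 genes and -0.12 with no filter on low counts, which lets in more of the 11 markers. Medians of lists near 0 changed sign too, among them clock genes (0.05, and -0.06 without Rab30L-/- replicate 4) and gluconeogenesis (-0.03, and 0.055 with limma-voom). No paired analysis was possible because the replicate numbers follow the order of deposit and pair no livers across groups. At the depth of these libraries, 3 counts, the floor used here, came to 0.192 CPM in Rab30L-/- and 0.205 CPM in ff;ff on average, so folds of genes at or under 3 counts in every library of a group are given as bounds.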
